A study of Mus musculus with 16 samples.

Results

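The genes described here are 9 transcription factor genes of the mouse brain, 3 of the C/EBP family (Cebpa, Cebpb and Cebpd) and 6 of the Kruppel-like family (Klf2, Klf4, Klf6, Klf9, Klf10 and Klf15). They were named by symbol and matched to Ensembl gene IDs, and each of the 9 was found among the 33289 gene IDs of the expression table. All 9 passed the filter on low values (at least 0.5 RPKM in at least 3 libraries) that left 17349 genes for testing. RPKM is the number of reads scaled to gene length and to the mapped reads of the library, so levels can be set side by side between genes.

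RNA was sequenced from hemi-brains of C57BL/6J mice aged 3 to 4 months. The mice were perfused with PBS, which washes blood from the vessels, and sampled 8 h after an injection of saline or of lipopolysaccharide (LPS), a cell wall component of Gram-negative bacteria that triggers an acute systemic inflammatory response. The 4 groups were wild type after saline, wild type after LPS, Lcn2-/- after saline and Lcn2-/- after LPS, with 4 libraries each and 16 in all, numbered here as replicates 1 to 4 within a group in accession order, which pairs nothing across groups. Lcn2 encodes lipocalin-2, a secreted iron-siderophore binding protein of the acute phase response. The labels used here give neither the LPS dose nor the kind of Lcn2 allele, and they do not say whether each library came from a separate animal, so the p-values cover only the spread among libraries, which may be technical.

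C/EBP proteins are basic leucine zipper factors that bind DNA as dimers. C/EBP-alpha is best known for driving the differentiation of granulocytes, hepatocytes and fat cells, while C/EBP-beta and C/EBP-delta are induced by interleukin-6, interleukin-1 and STAT3 and switch on acute phase and cytokine genes. Kruppel-like factors bind CACCC and GC-rich boxes through zinc fingers at their C-terminal end: KLF2 and KLF4 restrain inflammatory genes in endothelium and myeloid cells, KLF6 responds to injury, KLF9 and KLF15 are induced by the glucocorticoid receptor, and KLF10 was first described as an early gene of the TGF-beta response.

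Promoter sequences are shown for 4 of the 7 genes that had a promoter window, which Cebpd and Klf10 did not. These are a pair of C/EBP genes that rose with LPS and a pair of KLF genes whose LPS effect differed between the genotype labels. Each sequence runs from 250 bases before to 30 bases after the transcription start on the sense strand, taken from RefSeq on the build GRCm38.p6. The window of Cebpa lies at chr7:35119043-35119322, that of Cebpb at chr2:167688665-167688944, that of Klf9 at chr19:23140976-23141255 and that of Klf15 at chr6:90462326-90462605, all on the plus strand. Capitals mark the motif matches described after the sequences.
Cebpa: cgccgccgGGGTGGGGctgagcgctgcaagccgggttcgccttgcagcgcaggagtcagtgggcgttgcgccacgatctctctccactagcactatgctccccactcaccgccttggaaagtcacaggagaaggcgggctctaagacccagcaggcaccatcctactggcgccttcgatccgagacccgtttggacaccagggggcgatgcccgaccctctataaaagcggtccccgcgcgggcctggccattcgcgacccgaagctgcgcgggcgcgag
Cebpb: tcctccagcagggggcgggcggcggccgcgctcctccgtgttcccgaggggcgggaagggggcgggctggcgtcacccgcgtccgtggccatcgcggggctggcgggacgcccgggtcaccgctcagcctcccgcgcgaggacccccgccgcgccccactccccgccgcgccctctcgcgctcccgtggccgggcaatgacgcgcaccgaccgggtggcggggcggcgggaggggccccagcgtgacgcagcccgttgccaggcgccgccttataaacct
Klf9: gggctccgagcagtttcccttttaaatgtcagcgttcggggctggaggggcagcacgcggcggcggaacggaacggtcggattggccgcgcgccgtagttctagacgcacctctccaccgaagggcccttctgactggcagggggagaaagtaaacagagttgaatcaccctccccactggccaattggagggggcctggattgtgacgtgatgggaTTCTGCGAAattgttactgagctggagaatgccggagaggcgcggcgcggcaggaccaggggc
Klf15: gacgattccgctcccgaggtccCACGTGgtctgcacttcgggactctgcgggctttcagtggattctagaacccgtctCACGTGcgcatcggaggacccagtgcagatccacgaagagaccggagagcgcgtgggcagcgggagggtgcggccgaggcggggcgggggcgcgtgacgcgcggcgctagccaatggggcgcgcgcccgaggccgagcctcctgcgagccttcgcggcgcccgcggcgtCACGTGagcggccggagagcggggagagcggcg

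Promoter windows of 300 bases (250 before and 50 after the start) were matched for 7 of the 9 genes, all but Cebpd and Klf10. Klf15 held the E-box CACGTG 3 times, with first bases at -228, -172 and -3 from the start. Of all 32851 windows in the table, 7.15% held at least 1 such E-box and 29 held 3 or more. Klf4 held 1 E-box at -182 and Klf6 held 1 at -43. Klf9 held 1 match to the STAT motif TTCNNNGAA at -33, a motif found in 8.3% of all windows. Cebpa held 1 match to the CACCC box CCCCACCC, on the minus strand at -242, against 9.99% of all windows. Cebpb and Klf2 held no match to any motif searched. The other motifs, searched on both strands, were TTGCGCAA and TTGCNNAAT for C/EBP (0.183% and 2.4% of all windows), the CACCC box CCACACCC (3.56%), ACANNNTGT and AGAACA for the glucocorticoid receptor (6.85% and 19.0%), GGGANTTTC for NF-kB (1.11%), TGACGTCA for CREB (1.79%), and TAAAAATA and TATTTATA for MEF2 (2.72% and 1.7%). None of these 9 motifs had a match in the 7 windows, no matches overlapped each other, and a match describes letters only and is no evidence of binding. The windows were rich in G and C, from 63.0% in Klf6 to 80.7% in Cebpb, against a median of 52.7% over all windows. GENCODE vM21, on the same build, places Cebpd at chr16:15887286-15891031 on the plus strand and Klf10 at chr15:38291463-38300706 on the minus strand.

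Lcn2, the targeted gene, was measured first in every library. Saline libraries of the wild type held 0.065, 0.0741, 0.204 and 0.137 RPKM, and those with the Lcn2-/- label held 0.132, 0.204, 0.351 and 0.247 RPKM. LPS libraries of the wild type held 71.5, 67.8, 66.7 and 82.7 RPKM, and those with the Lcn2-/- label held 40.2, 34.1, 38.3 and 37.2 RPKM. Every LPS library carrying the Lcn2-/- label thus contained the transcript, at 0.52 times the wild type level (log2 difference -0.94 ± 0.31 (SE), adjusted p = 0.0505, 9.9e-06 to 0.11 over the alternatives run). After saline all libraries of both labels lay below the filter level of 0.5 RPKM, where presence of the transcript is not clear. Whether the measured reads lie in the deleted part of the gene cannot be seen from these values. "Labelled Lcn2-/-" is used throughout, since Lcn2 was measured after LPS under that label and the kind of allele is not given.

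Saline replicate 4 labelled Lcn2-/- stood apart from the other 15 libraries. It held 17112 genes at 0.5 RPKM or more against 16372 to 16497 elsewhere, and the SD of its log2 differences from its group was 0.533 to 0.552 against 0.224 to 0.296 between all other libraries of the same group. Within its group it was highest for Klf4, Klf9 and Klf10 and lowest for Cebpa, Cebpb, Cebpd, Klf2 and Klf15. Calls of the 9 genes that changed without this library are therefore named below. Estimates and counts given once come from fits that include it, and some list counts changed without it. Summed neuron markers lay between 1220 and 1300 RPKM over all libraries. Summed pericyte and smooth muscle markers lay at 98.5 to 102 RPKM after saline and 72.0 to 77.6 RPKM after LPS in wild type. With the Lcn2-/- label they lay at 91.0 to 99.5 RPKM and 66.4 to 78.1 RPKM. Of these 11 markers 7 were called lower with LPS under each label, and 1 was called higher in wild type. Summed astrocyte markers lay between 621 and 670 RPKM in saline and between 737 and 791 RPKM in LPS libraries, and 5 of 10 were called higher with LPS under each label. Of 12 microglia markers 2 rose and 8 fell in wild type and 3 rose and 9 fell under the Lcn2-/- label, while their summed level lay between 145 and 170 RPKM throughout. The part of these cells in the results below was not tested. In bulk tissue, fewer cells of a type and less RNA per cell cannot be told apart.

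**Figure D1:**
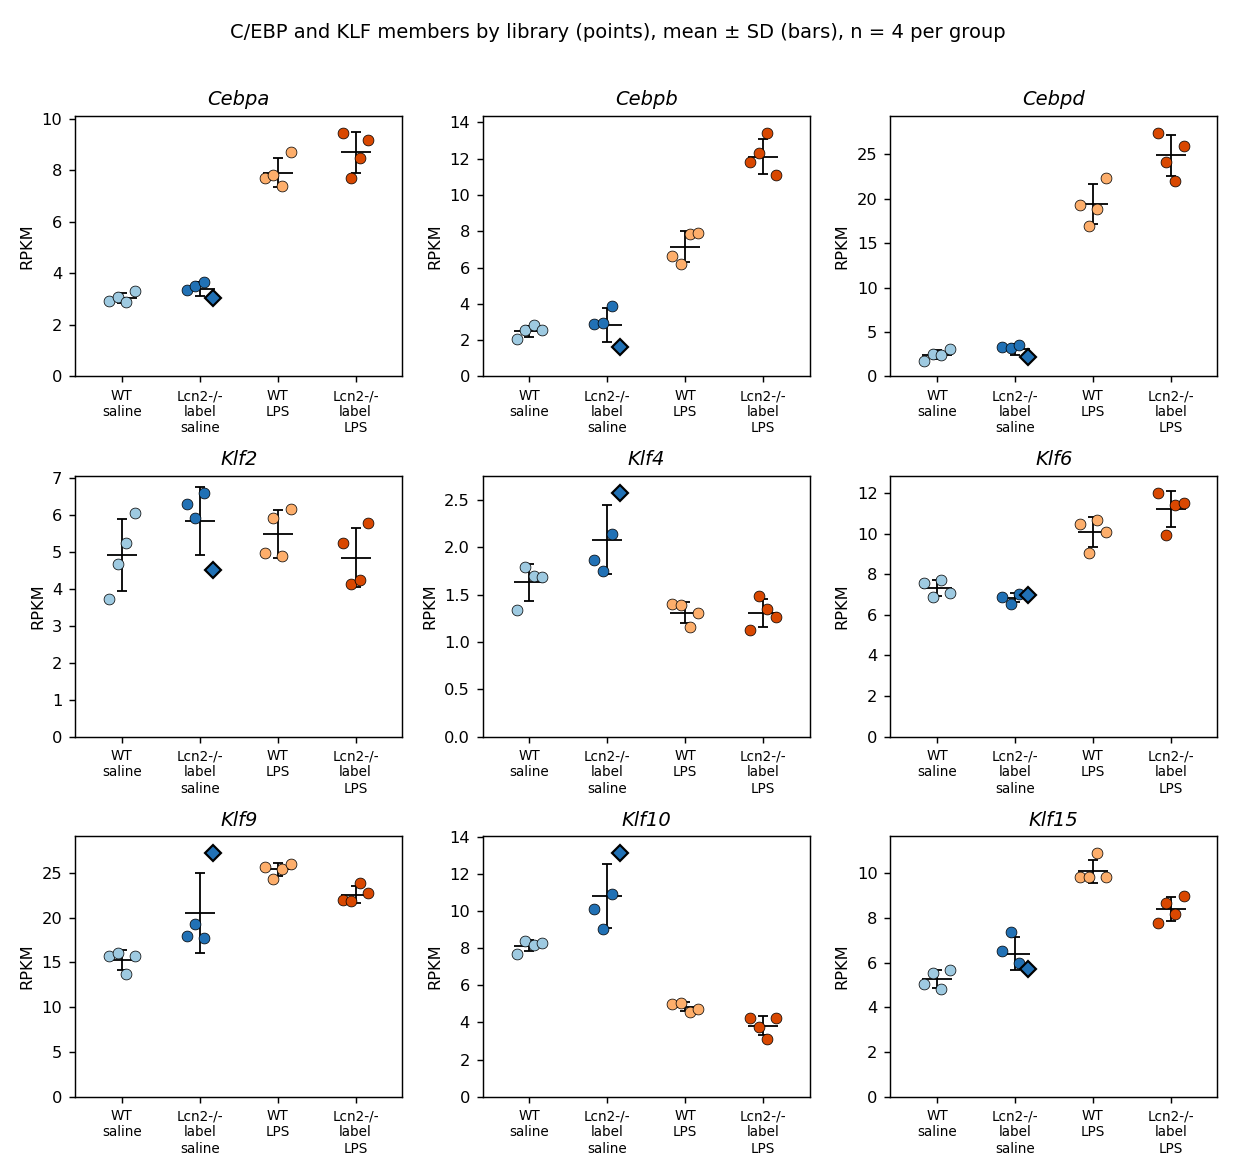
RPKM of each of the 9 genes (y axis, linear, from 0) in the 4 groups (x axis); each point is 1 library, the bars give the mean ± SD of 4 libraries, and the diamond marks saline replicate 4 labelled Lcn2-/-. The 3 C/EBP genes are higher in all 8 LPS libraries than in all 8 saline libraries, with Cebpd going from 1.78 to 3.56 RPKM after saline up to 16.9 to 27.4 RPKM after LPS.

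LPS raised 6 of the 9 genes in wild type (Cebpa, Cebpb, Cebpd, Klf6, Klf9 and Klf15) and lowered 1 (Klf10), while Klf2 and Klf4 did not pass the test. Genes with a limma p under 0.05 after Benjamini-Hochberg adjustment over all genes tested are called changed. This count of 7 of 9 stands beside 25.3% of all genes tested (11.4% higher and 13.9% lower), and the median log2 fold change of the members was 0.73 against -0.025 over all genes. In libraries labelled Lcn2-/-, 5 rose (Cebpa, Cebpb, Cebpd, Klf6 and Klf15), 2 fell (Klf4 and Klf10) and Klf2 and Klf9 did not pass, beside 48.3% of all genes (20.7% higher and 27.7% lower) and with medians of 0.40 and -0.028. The saline and LPS libraries did not overlap for 7 of the 9 genes in either genotype, against 32.4% of all genes in wild type and 42.4% under the label Lcn2-/-. With trends on GC content and gene length removed, the genes called split into 2449 higher and 1986 lower in wild type, against 1980 and 2409 without that step, and no called member changed direction. Leaving out saline replicate 4 labelled Lcn2-/- gave 6 higher and 2 lower members in wild type and 6 higher and 3 lower in libraries labelled Lcn2-/-, beside 34.7% and 48.8% of all genes.

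**Figure D2:**
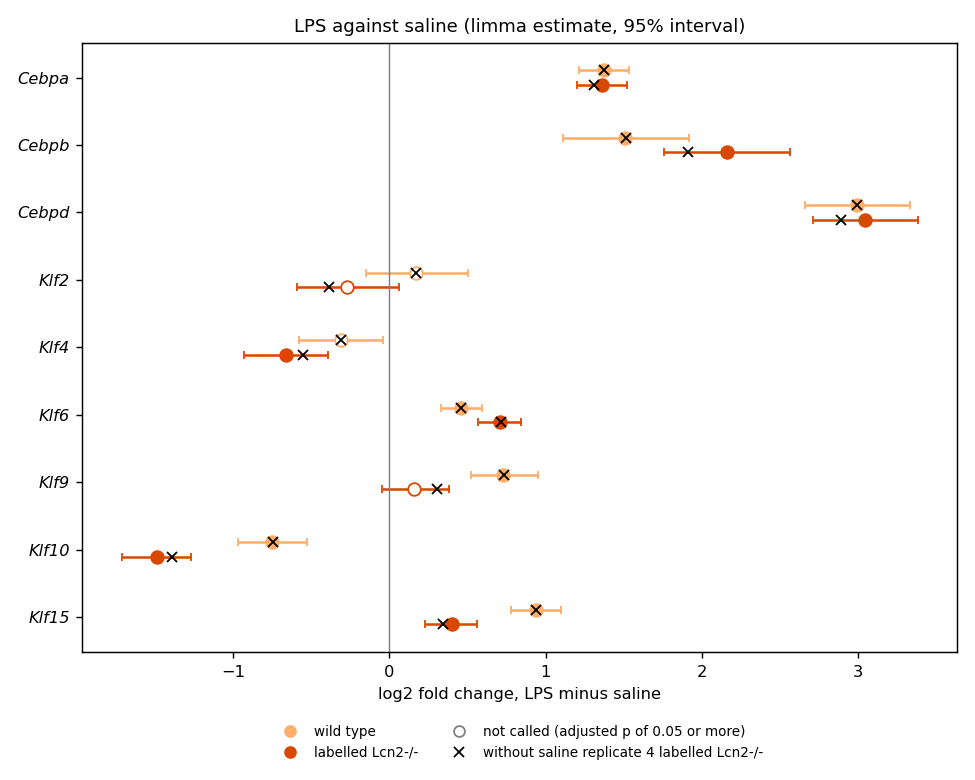
Log2 fold change of LPS against saline (x axis) for each gene (y axis), by genotype label; points are limma estimates with 95% intervals (4 libraries against 4), open points were not called, and crosses give the estimate without saline replicate 4 labelled Lcn2-/-. Cebpd shows 2.99 and 3.04 in the 2 genotype labels, while Klf9 shows 0.73 and 0.16 and Klf10 -0.75 and -1.49.

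Cebpd, the acute phase C/EBP, showed the largest LPS response of the 9 genes in both genotype labels. It was measured at 1.78, 2.55, 2.47 and 3.04 RPKM in wild-type saline libraries and at 19.3, 16.9, 18.9 and 22.4 RPKM after LPS. In libraries labelled Lcn2-/- it was measured at 3.32, 3.18, 3.56 and 2.17 RPKM after saline and at 27.4, 24.1, 22.0 and 25.9 RPKM after LPS. Every LPS library was above every saline library. The rise was 7.97-fold in wild type (log2 2.99 ± 0.159 (SE), 95% interval of the fold 6.3 to 10.1, adjusted p = 9.76e-10) and 8.25-fold in libraries labelled Lcn2-/- (log2 3.04 ± 0.159, adjusted p = 3.93e-10). Among all genes tested Cebpd moved from percentile 35.5 to percentile 85.6 of expression in wild type and from 40.5 to 89.3 in libraries labelled Lcn2-/-. Spidr, a DNA repair gene on the opposite strand, overlaps Cebpd by 1808 bases, and no source used here says whether reads were counted by strand. Spidr stood at a mean log2 RPKM of -0.88 and -0.64 after saline and of 0.05 and 1.46 after LPS (wild type first), so reads of the overlap could have been counted for either gene.

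Cebpb, also called NF-IL6 for its binding to the interleukin-6 promoter, rose in both genotype labels and was the only one of the 9 genes called higher in libraries labelled Lcn2-/- after LPS. Its levels were 2.09, 2.54, 2.82 and 2.57 RPKM in wild type after saline and 6.66, 6.21, 7.84 and 7.9 RPKM after LPS. Libraries labelled Lcn2-/- held 2.9, 2.96, 3.88 and 1.61 RPKM after saline and 11.8, 12.3, 13.4 and 11.1 RPKM after LPS. The lowest LPS library labelled Lcn2-/- thus stood above the highest wild type LPS library, whereas the saline groups overlapped. LPS raised Cebpb by 1.51 ± 0.19 (SE) on the log2 scale in wild type (2.86-fold, adjusted p = 1.69e-05) and by 2.16 ± 0.19 in libraries labelled Lcn2-/- (4.47-fold, adjusted p = 2.02e-07). After LPS the label difference was 1.7-fold (log2 0.77 ± 0.19, 95% interval 0.37 to 1.17, adjusted p = 0.0135), and it was called under each alternative and each left-out library. The difference between the 2 LPS effects, 0.65 ± 0.268, did not pass (adjusted p = 0.13). It passed without saline replicate 3 labelled Lcn2-/- (0.82 ± 0.237, adjusted p = 0.045), the highest of its group, and the saline difference of 0.12 then turned to -0.052. Without saline replicate 4 labelled Lcn2-/-, the lowest of its group, the difference between the LPS effects was 0.40 and the saline difference 0.37, and neither passed. Tmem189 overlaps Cebpb by 908 bases on the opposite strand; its log2 changes with LPS were 0.07 in wild type and 0.09 under the Lcn2-/- label, and neither was called.

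Cebpa, the differentiation factor of the family, rose by nearly the same amount in both genotype labels. In wild type it went from 2.92, 3.07, 2.91 and 3.33 RPKM after saline to 7.72, 7.81, 7.4 and 8.7 RPKM after LPS. In libraries labelled Lcn2-/- it went from 3.34, 3.53, 3.65 and 3.05 RPKM to 9.45, 7.69, 8.5 and 9.19 RPKM. The LPS and saline libraries were far apart, and the genotype labels overlapped within each treatment. The rise was 2.59-fold in wild type (log2 1.37 ± 0.0749 (SE), adjusted p = 1.27e-09) and 2.57-fold in libraries labelled Lcn2-/- (log2 1.36 ± 0.0749, adjusted p = 7.54e-10). The difference between the 2 effects was -0.01 on the log2 scale, with a 95% interval of -0.24 to 0.21 that leaves room for a difference of that size in either direction.

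The balance within the C/EBP family shifted with LPS. The ratio of Cebpd to Cebpb RPKM, taken within each library, was 0.848 to 1.18 in the wild type saline group and 0.918 to 1.35 in the saline group labelled Lcn2-/-. After LPS it was 2.41 to 2.89 in wild type and 1.65 to 2.33 under the Lcn2-/- label, so that the 2 LPS groups did not overlap in this ratio. The ratio of Cebpd to Cebpa, in turn, was 2.16 to 2.57 in wild type and 2.59 to 3.14 in libraries labelled Lcn2-/- after LPS.

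Klf9 and Klf15, both known as direct glucocorticoid receptor targets, rose with LPS in wild type and had smaller LPS effects under the Lcn2-/- label, where Klf15 rose and Klf9 did not pass. Klf15, a regulator of amino acid and lipid use, was measured at 5.05, 5.55, 4.81 and 5.68 RPKM in wild type after saline and at 9.84, 9.84, 10.9 and 9.86 RPKM after LPS. Libraries labelled Lcn2-/- held 6.54, 7.38, 6.01 and 5.71 RPKM after saline and 7.76, 8.66, 8.18 and 9.01 RPKM after LPS. The label groups did not overlap within either treatment, with the Lcn2-/- label higher after saline and lower after LPS. LPS raised Klf15 1.92-fold in wild type (log2 0.94 ± 0.0764 (SE), adjusted p = 1.28e-07) and 1.31-fold in libraries labelled Lcn2-/- (0.40 ± 0.0764, adjusted p = 0.000578). The difference between the 2 effects, -0.55 ± 0.108, was called (adjusted p = 0.00912, 95% interval -0.78 to -0.32). It kept that call under each alternative and each left-out library.

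Klf9, which in neurons and oligodendrocytes also responds to thyroid hormone, was measured at 15.7, 16.1, 13.7 and 15.7 RPKM in wild type after saline and at 25.7, 24.3, 25.4 and 26.0 RPKM after LPS. In libraries labelled Lcn2-/- it stood at 18.0, 19.3, 17.7 and 27.2 RPKM after saline, with replicate 4 the highest, and at 22.0, 21.9, 23.9 and 22.8 RPKM after LPS. Wild type LPS and saline libraries were apart, and those labelled Lcn2-/- overlapped through replicate 4 alone. The wild type rise was 1.66-fold (log2 0.73 ± 0.101 (SE), adjusted p = 4.8e-05). Under the Lcn2-/- label the log2 change was 0.16 ± 0.101 (adjusted p = 0.196), and it passed without saline replicate 4 (0.31 ± 0.0515, adjusted p = 0.00017). The difference between the 2 effects was -0.57 ± 0.143 (adjusted p = 0.0259) and -0.43 without that library. It missed the threshold without wild type saline replicate 3 (-0.52, adjusted p = 0.059), wild type LPS replicate 1 (-0.56, adjusted p = 0.053) or LPS replicate 2 labelled Lcn2-/- (-0.55, adjusted p = 0.053).

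Klf10, known from the TGF-beta response, was the one member called lower with LPS in both genotype labels. Its levels were 7.69, 8.36, 8.16 and 8.29 RPKM in wild type after saline and 5.01, 5.06, 4.58 and 4.7 RPKM after LPS. Under the Lcn2-/- label they were 10.1, 9.02, 10.9 and 13.1 RPKM after saline and 4.26, 3.74, 3.13 and 4.21 RPKM after LPS. The groups did not overlap in any of the 4 comparisons between them: the Lcn2-/- label held the highest level after saline and the lowest after LPS. Klf10 fell by 0.75 on the log2 scale in wild type (SE 0.103, to 0.596 of the saline level, adjusted p = 4.73e-05) and fell by 1.49 in libraries labelled Lcn2-/- (to 0.356, adjusted p = 1.22e-08). The difference between the 2 effects, -0.74 ± 0.146, was called (adjusted p = 0.00894) under each alternative and each left-out library, and it was -0.65 without saline replicate 4. The ratio of Klf9 to Klf10 within a library went from 1.62 to 2.13 over all saline libraries to 4.8 to 5.54 in wild type and 5.16 to 7.64 in libraries labelled Lcn2-/- after LPS.

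Klf6, a factor induced by tissue injury, rose in both genotype labels. It was measured at 7.56, 6.87, 7.73 and 7.09 RPKM in wild type after saline and at 10.5, 9.03, 10.7 and 10.1 RPKM after LPS. The libraries labelled Lcn2-/- held 6.88, 6.54, 7.01 and 6.98 RPKM after saline and 12, 9.93, 11.4 and 11.5 RPKM after LPS. LPS and saline did not overlap, and the genotype labels did. The log2 rise was 0.46 ± 0.0629 (SE) in wild type (1.38-fold, adjusted p = 4.17e-05) and 0.71 ± 0.0629 in libraries labelled Lcn2-/- (1.63-fold, adjusted p = 2.4e-07). The difference between the 2 effects, 0.24 ± 0.089, did not pass (adjusted p = 0.092), and it passed without LPS replicate 2 labelled Lcn2-/- (0.30, adjusted p = 0.045), the lowest of its group.

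Klf2 and Klf4, the flow-induced factors of endothelium, were called higher with LPS in neither genotype label. Klf2 spread widely within the groups, from 3.73, 4.68, 5.23 and 6.05 RPKM in wild type after saline to 4.98, 5.91, 4.89 and 6.17 RPKM after LPS. In libraries labelled Lcn2-/- it stood at 6.3, 5.93, 6.59 and 4.51 RPKM after saline and at 5.25, 4.12, 4.25 and 5.78 RPKM after LPS. The groups overlapped in every comparison. The log2 change was 0.17 ± 0.153 (SE) in wild type (adjusted p = 0.47, 95% interval -0.15 to 0.50) and -0.27 ± 0.153 with the Lcn2-/- label (adjusted p = 0.163, 95% interval -0.59 to 0.06). The second passed without saline replicate 4 labelled Lcn2-/- (-0.38, adjusted p = 0.039).

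Klf4 had the lowest level of the 9 genes in each group. It stood at 1.34, 1.79, 1.7 and 1.69 RPKM in wild type after saline and at 1.4, 1.39, 1.16 and 1.3 RPKM after LPS, with 1 saline library inside the LPS range. Under the Lcn2-/- label it stood at 1.86, 1.75, 2.14 and 2.57 RPKM after saline and at 1.13, 1.48, 1.35 and 1.26 RPKM after LPS, with no overlap. It fell by 0.66 on the log2 scale in libraries labelled Lcn2-/- (SE 0.126, adjusted p = 0.000512). In wild type the change of -0.31 ± 0.126 did not pass (adjusted p = 0.0867), and it passed without wild type saline replicate 1 (-0.40, adjusted p = 0.031) or without saline replicate 4 labelled Lcn2-/- (-0.31, adjusted p = 0.035). The 2 LPS effects differed by -0.35 ± 0.178, which did not pass (adjusted p = 0.207).

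After saline none of the 9 genes differed between the genotype labels in limma at an adjusted p under 0.05, beside 0.0461% of all genes tested (8 genes, 0.0346% higher and 0.0115% lower, with 1897 at an unadjusted p under 0.05). Before adjustment 4 members passed 0.05, all with the higher level under the Lcn2-/- label: Klf4 (log2 0.35 ± 0.126 (SE), adjusted p = 0.409), Klf9 (0.40 ± 0.101, adjusted p = 0.27), Klf10 (0.40 ± 0.103, adjusted p = 0.286) and Klf15 (0.28 ± 0.0764, adjusted p = 0.305). The label groups did not overlap for Klf9, Klf10 and Klf15, 3 of 9 members against 5.19% of all genes. Without saline replicate 4 labelled Lcn2-/- the estimates of these 3 genes were 0.26, 0.30 and 0.33. After LPS, Cebpb was higher and Klf10 and Klf15 were lower with the Lcn2-/- label, 3 of 9 members beside 15.8% of all genes (7.04% higher and 8.74% lower), with a median of -0.01 over the members and over all genes. The label groups did not overlap for 4 members (Cebpb, Klf9, Klf10 and Klf15) against 28% of all genes.

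The LPS differences of Klf10 and Klf15 lay close to the threshold. The label difference of Klf10 was -0.35 ± 0.103 (SE) on the log2 scale (adjusted p = 0.0339), and it missed the threshold without any of the 4 wild type LPS libraries or without LPS replicate 2 or 3 labelled Lcn2-/- (-0.37 to -0.25, adjusted p = 0.053 to 0.11). That of Klf15 was -0.27 ± 0.0764 (adjusted p = 0.0283), and it missed the threshold without wild type LPS replicate 1 or 3 or without LPS replicate 1 or 3 labelled Lcn2-/- (-0.28 to -0.23, adjusted p = 0.051 to 0.087). Cebpd (0.36 ± 0.159, adjusted p = 0.132), Klf6 (0.15 ± 0.0629, adjusted p = 0.111) and Klf9 (-0.16 ± 0.101, adjusted p = 0.288) did not pass. Without saline replicate 4 labelled Lcn2-/-, whose spread enters the shared error, Cebpd (adjusted p = 0.041) and Klf9 (adjusted p = 0.018) passed, and without LPS replicate 2 labelled Lcn2-/- Klf6 passed (0.21, adjusted p = 0.036). Without the saline library 2 members were higher and 3 lower, beside 29.8% of all genes.

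The interaction of genotype label and LPS was called for Klf9, Klf10 and Klf15, all with a negative sign, beside 8.82% of all genes (4.92% lower). For each of these 3 genes the Lcn2-/- label was above wild type after saline and below it after LPS. The interaction shares its 4 groups with the comparisons above, so it restates their differences. Without saline replicate 4 labelled Lcn2-/- the same 3 members were called (-0.43, -0.65 and -0.60), beside 13.1% of all genes.

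**Figure D3:**
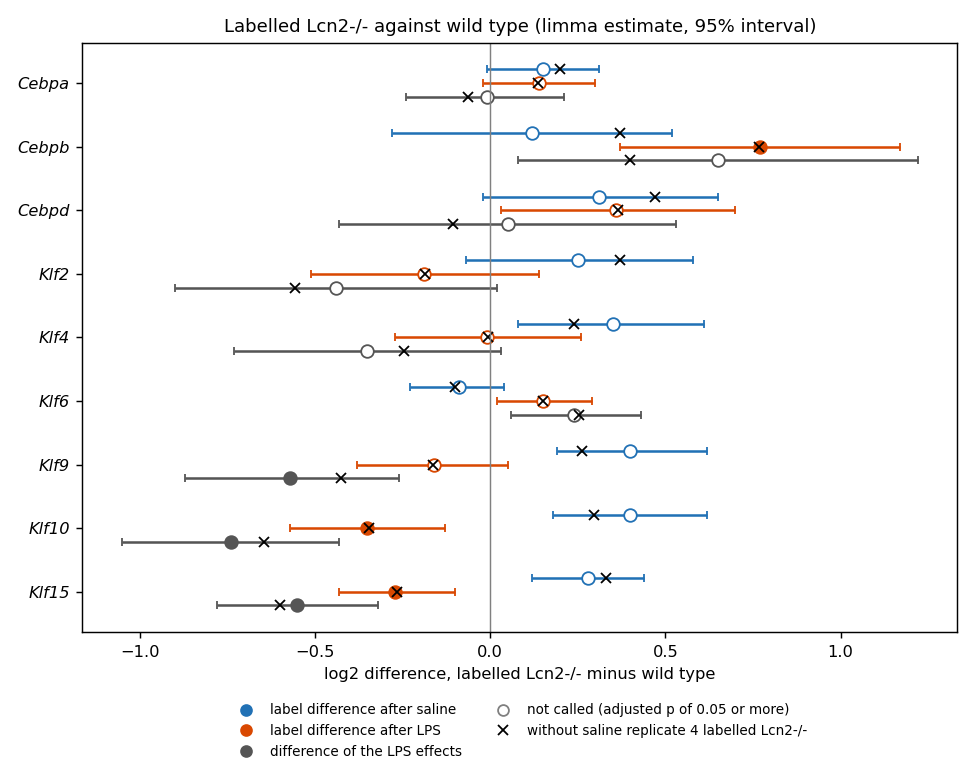
Log2 difference of libraries labelled Lcn2-/- minus wild type (x axis) for each gene (y axis) after saline and after LPS, and the difference of the 2 LPS effects; points are limma estimates with 95% intervals (4 libraries per group), open points were not called, and crosses give the estimate without saline replicate 4 labelled Lcn2-/-. Klf9, Klf10 and Klf15 lie above 0 after saline (0.40, 0.40 and 0.28) and below 0 after LPS (-0.16, -0.35 and -0.27), whereas Cebpb lies at 0.77 after LPS.

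The order of levels among the 9 genes changed with LPS. In wild type after saline the order of geometric means was Klf9 (15.3 RPKM), Klf10 (8.12), Klf6 (7.3), Klf15 (5.26), Klf2 (4.85), Cebpa (3.05), Cebpb (2.49), Cebpd (2.42) and Klf4 (1.62). The neighbours Klf10 and Klf6, Klf15 and Klf2, Cebpb and Cebpd, and Cebpd and Klf4 overlapped in their ranges of 4 libraries. After LPS the wild type order was Klf9 (25.4), Cebpd (19.3), Klf15 and Klf6 (both 10.1), Cebpa (7.89), Cebpb (7.12), Klf2 (5.46), Klf10 (4.84) and Klf4 (1.31), where Klf15 and Klf6, Cebpa and Cebpb, and Klf2 and Klf10 overlapped. With the Lcn2-/- label after saline the order opened with Klf9 (20.2) and Klf10 (10.7), and from Klf6 (6.85) to Klf15 (6.38) to Klf2 (5.77), and from Cebpa (3.38) to Cebpd (3.0) to Cebpb (2.71) to Klf4 (2.06), neighbours overlapped. After LPS under the same label, Cebpd (24.8) and Klf9 (22.6) overlapped at the top, followed by Cebpb (12.1) and Klf6 (11.2), Cebpa (8.68) and Klf15 (8.39), Klf2 (4.8) and Klf10 (3.81), each pair overlapping, and Klf4 (1.3). Klf10 thus went from the second to the eighth place in both genotype labels.

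**Figure D4:**
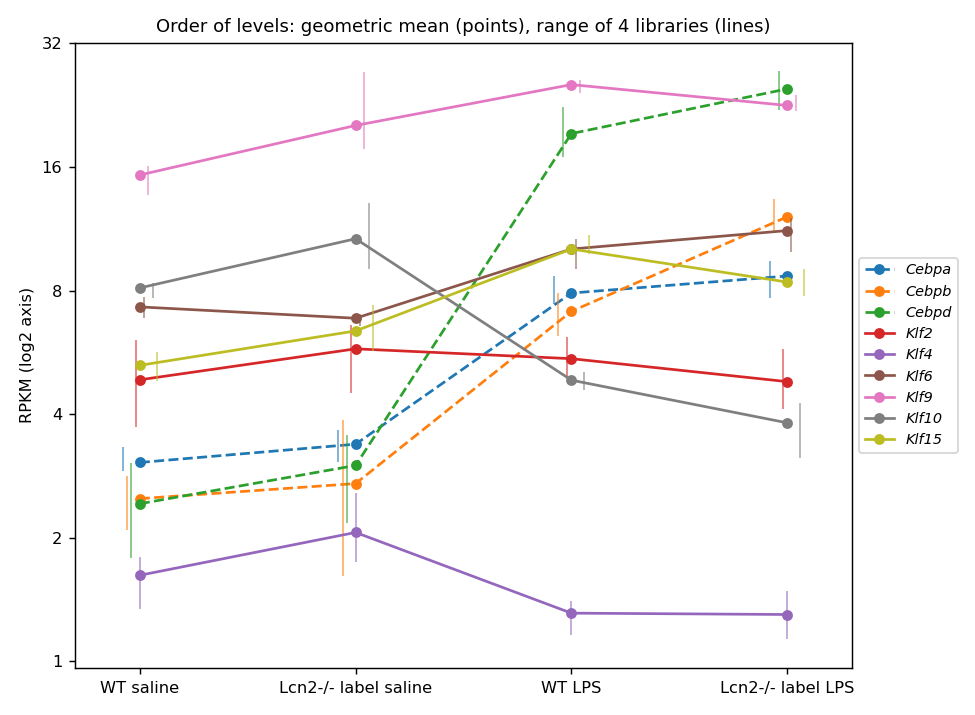
Geometric mean RPKM (y axis, log2 scale) of each gene in the 4 groups (x axis); thin vertical lines give the range of 4 libraries, dashed lines join C/EBP genes and solid lines KLF genes. Cebpd climbs from 2.42 to 19.3 RPKM in wild type while Klf10 drops from 8.12 to 4.84 RPKM.

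Over the 16 libraries Cebpa and Cebpd were each among the nearest genes to the other, with a Pearson r of log2 RPKM of 0.994 among 13936 named genes. Next to them were Cp, the ceruloplasmin gene, for Cebpa (0.994) and Txnip, a thioredoxin inhibitor, for Cebpd (0.996). The nearest genes were Rin2 for Cebpb (0.982), Lrrc32 for Klf6 (0.985), Trio for Klf9 (0.954), Zfhx2 for Klf10 (0.979), Sez6l2 for Klf15 (0.972), Slain1os for Klf4 (0.951) and Rrp1b for Klf2 (0.746). Sult1a1, a sulfotransferase gene on the glucocorticoid list below, was second for Klf15 (0.956). These values describe the LPS and saline clusters that all 16 libraries share and carry no p. For deviations from the group means, Klf2 varied with Cebpd (0.83, and 0.77 without saline replicate 4 labelled Lcn2-/-) and with Cebpa (0.80 and 0.74), while Cebpb and Klf9 gave -0.79 with that library and -0.18 without it.

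Other family members and pathway genes were taken from lists drawn up with earlier results of these data known, so they are no unselected sample. Their counts are a description, given beside the share of all genes called. That share was 25.3% in wild type and 48.3% with the Lcn2-/- label for LPS, and 15.8% for the label difference after LPS. Without saline replicate 4 labelled Lcn2-/- these shares were 34.7%, 48.8% and 29.8%. Of 19 tested C/EBP relatives and other basic leucine zipper genes, 7 rose and 2 fell in wild type, and 9 rose and 2 fell with the Lcn2-/- label. Atf3, a stress-induced repressor, rose by 1.08 and 3.07 on the log2 scale, and Batf, a partner of JUN in lymphocytes, rose by 1.46 and 3.10. Both had saline means below the filter level of 0.5 RPKM under each label, so the filter favoured a rise. Fos, an immediate early gene, fell by 1.23 in wild type, and Dbp, a circadian factor, fell by 0.36 and 0.61. After LPS 8 of the 19 were higher and 2 lower with the Lcn2-/- label, with Atf3 at 1.74 ± 0.227 (SE, adjusted p = 0.00018), Nfil3 at 0.65 and Cebpg, a C/EBP without an activation domain, at -0.43. In wild type 4 of the 19 fell without saline replicate 4 labelled Lcn2-/-.

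Of 12 listed KLF genes outside the 9, 8 were tested, and 1 rose and 2 fell in wild type against 1 and 4 with the Lcn2-/- label. Klf13 rose by 0.38 and 0.10, Klf16 fell by 0.66 and 0.86, and Klf8 fell by 0.54 and 0.75. Mean Klf8 levels were 0.643 and 0.624 RPKM after saline and 0.442 and 0.372 RPKM after LPS (wild type first). The LPS means lay below the filter level of 0.5 RPKM, so the filter favoured a fall of Klf8. Klf16 was the one that was lower with the Lcn2-/- label after LPS (-0.20 ± 0.0394 (SE), adjusted p = 0.0036). The interaction was called for Klf13 (-0.28, adjusted p = 0.0058) and Klf16 (-0.21, adjusted p = 0.033). Of 7 tested genes of the related SP family, 2 rose and 1 fell in wild type, against 1 and 5 with the Lcn2-/- label, and 4 were lower with that label after LPS. Leaving out saline replicate 4 labelled Lcn2-/-, 2 of the 8 KLF genes rose under that label.

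Genes upstream of the C/EBP family rose with LPS in most cases: of 18 tested, 13 rose and 2 fell in wild type, and 15 rose and 2 fell with the Lcn2-/- label (medians 0.90 and 1.19). The cytokine gene Il6 rose by 3.50 and 4.43 on the log2 scale, Socs3, the feedback inhibitor of STAT3, by 3.20 and 4.22, and the receptor gene Osmr by 2.96 and 3.46. Mean Il6 levels after saline were 0.0422 RPKM in wild type and 0.0853 RPKM with the Lcn2-/- label. Il6 thus passed the filter through LPS libraries. Mean Osmr levels after saline, 0.386 and 0.425 RPKM, also lay below the filter level of 0.5 RPKM, so the filter favoured a rise. The counts and medians of this list are therefore partly set by the filter. Nr3c1, the glucocorticoid receptor gene, fell by 0.57 and 0.71, and Trib2, whose product directs C/EBP-alpha to degradation, fell by 0.59 and 0.66. After LPS 8 of the 18 were higher and 1 lower with the Lcn2-/- label, among them Il6 (1.94 ± 0.261 (SE), adjusted p = 0.00023) and Socs3 (1.10). The counts without saline replicate 4 labelled Lcn2-/- were 10 higher and 2 lower, beside 29.8% of all genes.

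Of 27 listed C/EBP target genes of the acute phase, 20 were tested, and they had the highest medians of these lists. In each genotype label 17 of the 20 rose and 2 fell, with medians of 3.32 and 4.20. Csf3, which encodes the cytokine G-CSF, rose by 7.52 and 8.69, and Saa3, a serum amyloid A gene, by 9.64 and 9.23. In wild type after saline these genes had means of 0.0467 and 0.14 RPKM, below the filter level of 0.5 RPKM. Genes that passed the filter only through their LPS libraries could only rise. The count and medians of this list are therefore partly set by the filter. The receptor gene Csf3r fell by 0.57 and 0.98. Lcn2 itself is on this list, and Il6 is on this and the preceding one. With the Lcn2-/- label 7 of the 20 were higher after LPS and 0 lower, among them Ptx3 (2.70 ± 0.423 (SE), adjusted p = 0.0008) and Ccl2 (2.26), while Saa3 was at 0.07. Leaving out saline replicate 4 labelled Lcn2-/- gave 8 higher and 1 lower, beside 29.8% of all genes. The range of the summed neutrophil markers went from 3.62 to 9.87 RPKM in wild type and 5.62 to 8.03 RPKM with the Lcn2-/- label after saline to 11.7 to 18.2 and 11.8 to 29.2 RPKM after LPS. Of 12 such markers 5 were tested and 3 rose in each genotype label, while Ly6g stayed at or below 0.115 RPKM and Elane at or below 0.107 RPKM in every library. The part of these cells in the C/EBP values was not tested.

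Genes set by KLF2 and KLF4 in endothelium moved in both directions, with 9 of 21 tested rising and 4 falling in wild type and 12 and 5 with the Lcn2-/- label. Those that rose include Icam1, a leukocyte adhesion gene (2.95 and 4.23), and Angpt2 (2.90 and 3.05), and those that fell include Tek, the angiopoietin receptor gene (-2.36 and -2.86), and Kdr, a VEGF receptor gene (-1.68 and -1.63). Mean Kdr levels after LPS were 0.487 RPKM in wild type and 0.427 RPKM with the Lcn2-/- label, below the filter level of 0.5 RPKM. The filter thus favoured a fall of Kdr. Tek stood at 0.52 and 0.334 RPKM after LPS, near or below that level. After LPS 8 of the 21 were higher and 2 lower with the Lcn2-/- label. Without saline replicate 4 of that label these counts were 9 and 4, beside 29.8% of all genes. Icam1 was at 1.41 ± 0.101 (SE, adjusted p = 9.9e-07), Tek at -0.64 and Cav1, the caveolin gene, at -0.22. Of 14 genes upstream of KLF2 and KLF4, 2 rose and 1 fell in wild type and 2 rose and 6 fell with the Lcn2-/- label. Mapk7, which encodes the kinase ERK5, fell by 0.33 and 0.41, and Foxo1 rose by 0.43 and 0.82. Summed endothelial markers, 12 of 12 tested, lay at 110 to 123 RPKM and 99.4 to 113 RPKM after saline and at 127 to 138 RPKM and 103 to 116 RPKM after LPS (wild type first). Of these markers 4 rose and 5 fell in wild type and 3 rose and 6 fell with the Lcn2-/- label. After LPS 1 was higher and 6 were lower with that label, or 1 and 8 without its saline replicate 4. The part of these markers in the Klf2 and Klf4 values was not tested.

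Most glucocorticoid-induced genes rose with LPS: 20 of 22 tested rose in each genotype label, with medians of 1.55 and 1.34. In wild type 1 fell and 1 did not pass, and with the Lcn2-/- label 2 did not pass. The part of glucocorticoids in the Klf9 and Klf15 values was not tested. Plin4, a lipid droplet gene, rose by 4.71 and 3.95, and Map3k6 by 3.38 and 3.15. The mean of Plin4 after saline was 0.484 RPKM in wild type, below the filter level of 0.5 RPKM, and 0.732 RPKM with the Lcn2-/- label. For genes below that level after saline the filter favoured a rise, so the counts of this list are partly set by it. After LPS 4 of the 22 were higher and 4 lower with the Lcn2-/- label. Without saline replicate 4 of that label these counts were 6 and 5, beside 29.8% of all genes. Those lower include Sult1a1 (-0.55 ± 0.115 (SE), adjusted p = 0.0058), Pdk4, a brake on glucose oxidation (-0.54), and Tsc22d3, which encodes the glucocorticoid mediator GILZ (-0.34), and those higher include Nfkbia (0.49) and Per1 (0.45). The interaction was called with a negative sign for 7 of the 22 and with a positive sign for 1, beside 4.92% and 3.9% of all genes. Without saline replicate 4 labelled Lcn2-/- these counts were 7 and 1 as well, beside 13.1% of all genes called in either direction.

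Genes tied to KLF15 in amino acid and lipid metabolism moved in both directions: 4 of 13 tested rose and 2 fell in wild type, against 3 and 1 with the Lcn2-/- label. Pdk4, which is on the glucocorticoid list too, rose by 1.30 and 0.74, and Prodh, the proline dehydrogenase gene, rose by 0.42 in wild type and was 0.27 lower with the Lcn2-/- label after LPS (log2 difference -0.27 ± 0.0655 (SE), adjusted p = 0.013). Of 8 thyroid hormone genes linked to KLF9, 3 rose and 1 fell in wild type and 4 rose and 1 fell with the Lcn2-/- label, among them Dio2, which activates thyroid hormone (1.21 and 1.16), and Hr (0.87 and 0.67). Without saline replicate 4 labelled Lcn2-/-, 3 of the 13 KLF15 genes and 2 of the 8 thyroid hormone genes fell under that label. Of 19 TGF-beta response genes listed with Klf10, 8 rose and 5 fell in wild type, and 7 rose and 5 fell with the Lcn2-/- label. Tgif1 rose by 1.75 with the Lcn2-/- label, from a mean of 0.198 to 0.664 RPKM. In wild type it stood at 0.249 RPKM after saline and 0.286 RPKM after LPS. It thus passed the filter of 0.5 RPKM through the group where it was high. Smad7, the feedback inhibitor of that pathway, fell by 0.34 and 0.66 and was lower with the Lcn2-/- label after LPS (-0.39 ± 0.0737 (SE), adjusted p = 0.003). Klf10 thus changed in the direction of Smad7 in both genotype labels.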

How the data were processed

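The authors deposited log2 RPKM values after conditional quantile normalization, per the file headers, with 1 column for each of 16 libraries. The build is mm10, per the submitters' processing notes; the aligner, counting tool and strand setting: not given in the sources used here. Counts were not used here, so the depth of each library is unknown. Symbols were matched to 98.2% of 33289 gene IDs through GENCODE vM21. Genes with log2 RPKM of at least -1 in at least 3 libraries were tested in a group-means model in limma 3.58.1 (R 4.3.3) with a trended prior. Tests were two-sided, and p-values were adjusted by Benjamini-Hochberg over all 17349 genes. Alternatives were other scales, filters, priors, weights and normalizations, 2-group fits and left-out libraries, and the procedure was tested on simulated data. Members and lists were chosen with earlier results of these data known. The text names the 9 members, Lcn2, leading genes of each list (picked from its 3 strongest called members per direction and its most abundant uncalled one), and nearest genes by correlation; Spidr and Tmem189, the interactions of Klf13 and Klf16, and Ly6g and Elane were added after their values were seen. One listed gene is not reported here by name. Reads were not analysed here, and promoter motifs were searched on both strands.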

Additional observations from a re-analysis of the deposited data

Results flagged for a closer look

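In 2 of 36 gene and group combinations examined, 1 of the 4 libraries lay far from the other 3. Klf9 in wild type saline replicate 3 stood at 3.78 on the log2 scale (13.7 RPKM), with a gap to its nearest neighbour of 0.835 of the group's whole range. Klf15 in wild type LPS replicate 3 stood at 3.44 (10.9 RPKM), with a gap of 0.982 of the range. Chance marks about 1 in 20 such groups. The LPS effects of the genotype labels differed by the interaction test for Klf9 (-0.57), Klf10 (-0.74) and Klf15 (-0.55), labelled Lcn2-/- minus wild type. For all 3 genes the label groups did not overlap after saline nor after LPS, and their order was opposite in the 2 treatments.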

How the results depend on the processing

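No paired analysis was possible because the labels carry no replicate numbers; the numbers used here were given in accession order and only name a library. Depth is unknown, so no limit from counting error can be given. Of the directions called for the 9 genes, none reversed under any alternative. Near 0, the interaction of Cebpa went to 0.001 on log2(RPKM + 0.5) and ranged from -0.062 to 0.047 over left-out libraries, that of Cebpd went to -0.069 with sample quality weights and ranged from -0.107 to 0.197, the label difference of Klf4 after LPS ranged from -0.069 to 0.06, and that of Cebpb after saline from -0.052 to 0.37; the cause was not tested. Calls were gained with only the 2 groups compared for Klf4 (LPS in wild type, -0.31), and for Cebpd (0.364) and Klf9 (-0.164) after LPS. With sample weights, calls were gained for LPS on Klf4 in wild type (-0.324) and on Klf2 (-0.414) and Klf9 (0.311) with the Lcn2-/- label, for the label after LPS on Cebpd (0.341), Klf6 (0.165) and Klf9 (-0.152), and for the interaction of Klf2 (-0.578); these weights gave saline replicate 4 labelled Lcn2-/- a weight of 0.091. With GC and length trends removed Klf6 passed after LPS (0.19).

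Over left-out libraries LPS on Klf4 in wild type ranged from -0.401 to -0.251, and on Klf2 and Klf9 with the Lcn2-/- label from -0.384 to -0.192 and from 0.1 to 0.305. The label difference after LPS ranged from 0.3 to 0.436 for Cebpd, 0.101 to 0.209 for Klf6, -0.191 to -0.149 for Klf9, -0.4 to -0.252 for Klf10 and -0.301 to -0.229 for Klf15. The interaction ranged from 0.398 to 0.82 for Cebpb, 0.193 to 0.301 for Klf6 and -0.631 to -0.425 for Klf9. Counts of genes called ranged from 3610 to 6023 and from 7324 to 8466 for LPS in wild type and with the Lcn2-/- label, from 3 to 13 and from 1532 to 5174 for the label after saline and after LPS, and from 727 to 2267 for the interaction. With no filter, which brings in 15940 more genes, the counts were 13790 and 17808 for LPS, 3 for the label after saline and 905 for the interaction. With only the 2 groups compared they were 3 after saline and 4393 after LPS. With sample weights they were 34 and 5295 for the label and 3030 for the interaction.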
